A study of Homo sapiens with 18 samples.

Results

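The report describes 5323 genes whose RNA was edited both by YTHDF3-ADAR and by YTHDF1-ADAR, out of 8577 genes listed as edited by either fusion and 8714 listed in any of the study's 3 editing tables. The genes were found by joining the authors' YTHDF3-ADAR and YTHDF1-ADAR tables on the gene symbol, so a gene listed for 1 fusion alone is not among them. The cells were HEK293T, a line derived from human embryonic kidney. The YTHDF3-ADAR cells and the YTHDF1-ADAR cells were handled alike: expression of the fusion was switched on with 1 µg/mL doxycycline for 24 h, and 100 µg/mL cycloheximide, which halts translating ribosomes, was given for 10 min before lysis. Total RNA was sequenced from 3 libraries of each line after removal of ribosomal RNA, and 3 libraries of polysome RNA from each line are used beside it. The labels describe no line without a fusion or with free ADAR, so no background of editing could be subtracted here. Whether the replicates came from separate cultures is not stated, and p-values then measure only the spread between these libraries, which may be technical.

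YTHDF1 and YTHDF3 are cytoplasmic proteins of the YTH family, which bind N6-methyladenosine (m6A), a methylated base common near stop codons and in the 3′ parts of mRNAs. ADAR enzymes turn adenosine into inosine in double-stranded RNA, and sequencing reads inosine as guanosine. In TRIBE, an RNA-binding protein is fused to an ADAR catalytic domain, so that RNAs which met the fusion carry A-to-G changes near the place of contact.

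For each gene and fusion the authors gave the number of edited sites, shared by total and polysome RNA, and a score for each kind of RNA. The score never exceeded the number of sites. Score divided by sites, in percent, is called editing per site here and is read as the mean share of edited reads over a gene's sites. Each fusion has 1 such value per gene over its 3 libraries. It averages over the sites listed for that fusion, whose positions are not given, so the sites averaged can differ between the fusions. The depth behind each value is unknown, so editing values carry no error and the comparison between the fusions has no test. Gene expression, in contrast, was counted in each library and could be tested.

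Total RNA libraries of the YTHDF3-ADAR line held 54232780, 49080156 and 54935177 counts, and those of the YTHDF1-ADAR line held 46164744, 52418080 and 46211893 counts. The neuronal filament genes that HEK293T cells are known to express were present, NEFL at 95, 151.0 and 150.4 CPM (read counts relative to library size, after scaling of the libraries) in YTHDF3-ADAR cells, against 276.4, 257.6 and 320.8 CPM in YTHDF1-ADAR cells. VIM, KRT8 and KRT18 were also present, and markers of blood, liver and endothelium (PTPRC, CD3E, ALB, PECAM1) were at 0.146 CPM or less in each of the 6 libraries. The fibroblast gene COL1A1 stood at 16.8, 34.5 and 32.9 CPM in YTHDF3-ADAR cells, against 8.53, 10.0 and 7.69 CPM in YTHDF1-ADAR cells. Replicate 1 stood apart from replicates 2 and 3 in both lines. Between replicates 2 and 3 the chi-square per degree of freedom over genes was 16.88 in the YTHDF3-ADAR line and 28.31 in the YTHDF1-ADAR line, and pairs with replicate 1 gave 137.41 to 216.72. TPR, a nuclear pore gene, shows the split, with 321.4, 86.4 and 140.3 CPM in the YTHDF3-ADAR replicates and 78.8, 242.0 and 252.1 CPM in the YTHDF1-ADAR replicates. YTHDF1-ADAR replicate 3 stood apart in another way: of a list of 76 nerve and glial tissue genes, 29 were under 1 CPM in it, against 8 to 13 in the other 5 libraries, while others stayed present, such as KIF5A at 22.5 CPM. SNAP25, a protein of synaptic vesicle fusion, had 15.7, 11.6 and 13.7 CPM in YTHDF3-ADAR cells, against 10.4, 11.6 and 0.146 CPM in YTHDF1-ADAR cells. CAMK2A, a kinase of excitatory neurons, had 9.15, 7.18 and 7.94 CPM in YTHDF3-ADAR cells, against 6.79, 7.36 and 0.0728 CPM in YTHDF1-ADAR cells. Because the editing values are pooled over replicates, they could not be recomputed without that library, and its part in them was not tested.

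Of the genes named in the fusions, YTHDF1 was clearly higher in the line labelled with it, and YTHDF3 less clearly so. The labels give both lines an ADAR fusion and no reason for a difference in ADARB1. ADARB1 encodes ADAR2, the deaminase known for editing glutamate receptor mRNA, and lies at chr21:45073853-45226560 (GRCh38, plus strand). ADARB1 had 1080.1, 1638.6 and 1650.6 CPM in YTHDF3-ADAR cells, against 267.8, 236.6 and 237.7 CPM in YTHDF1-ADAR cells. All 3 YTHDF3-ADAR libraries lay above all 3 YTHDF1-ADAR libraries, with a log2 fold change of 2.56 ± 0.14 (SE) and an adjusted p of 1.14e-08 by edgeR's quasi-likelihood test. ADARB1 was listed with 8 sites in YTHDF3-ADAR cells and 20 in YTHDF1-ADAR cells. Its editing per site was 95.2% in YTHDF3-ADAR cells and 9.69% in YTHDF1-ADAR cells, the widest gap among genes with at least 5 sites for both fusions. The tables give no positions, so edited bases and bases that differ between a transgene and the genome cannot be told apart there. YTHDF3 was expressed at 87.5, 68.7 and 73.7 CPM in YTHDF3-ADAR cells, against 46.3, 57.1 and 63.2 CPM in YTHDF1-ADAR cells, without overlap. Its log2 fold change was 0.46 ± 0.12 (SE), with an adjusted p of 0.0168 by edgeR; without YTHDF1-ADAR replicate 1 the log2 fold change was 0.35 and did not pass, nor did it with the 6 total RNA libraries alone (0.46). YTHDF3 RNA was edited at 10 sites in YTHDF3-ADAR cells and 11 in YTHDF1-ADAR cells, at 1.28% and 2.08% per site. YTHDF1 had 79.3, 64.5 and 60.4 CPM in YTHDF3-ADAR cells, against 445.0, 358.4 and 372.3 CPM in YTHDF1-ADAR cells. YTHDF1 was listed as edited by YTHDF1-ADAR alone, at 19 sites and 18.2% per site, so it is not among the shared genes. ADAR, which encodes ADAR1, had 316.7, 325.1 and 314.2 CPM, against 289.9, 264.7 and 285.0 CPM, and did not pass the edgeR test (adjusted p = 0.161).

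**Figure D1:**
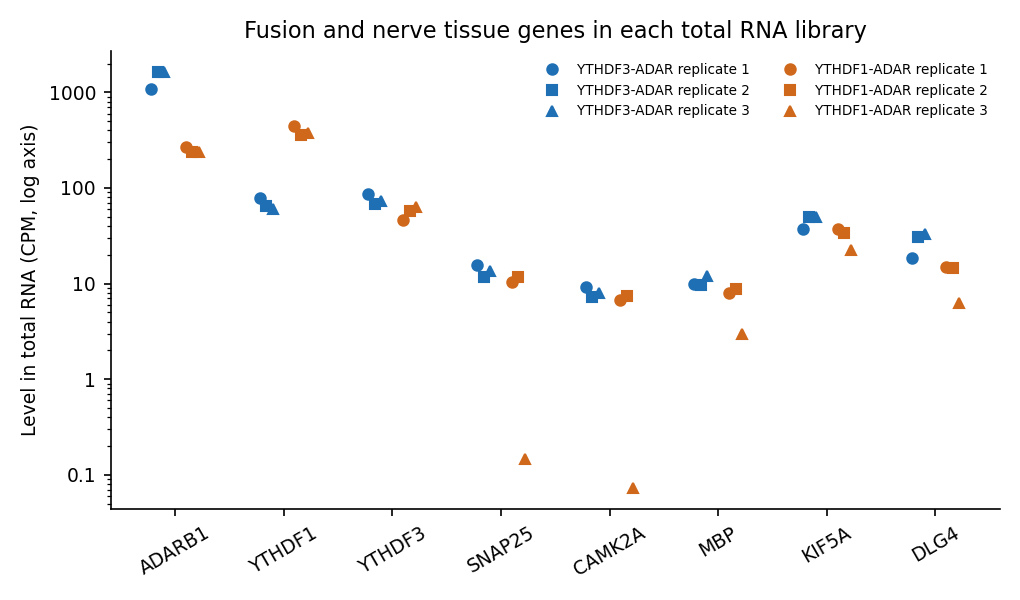
Level in CPM (vertical log axis) of the fusion genes and of genes typical of nerve tissue in each total RNA library, with YTHDF3-ADAR in blue at the left of each gene and YTHDF1-ADAR in orange at the right; each symbol is 1 library. ADARB1 lies at 1080.1 CPM or more in YTHDF3-ADAR cells and at 267.8 CPM or less in YTHDF1-ADAR cells, and SNAP25 and CAMK2A drop below 1 CPM in YTHDF1-ADAR replicate 3.

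The shared genes made up 75.6% of the 7042 genes in the YTHDF3-ADAR table and 77.6% of the 6858 genes in the YTHDF1-ADAR table. They held 90.3% of all sites of YTHDF3-ADAR and 85.5% of all sites of YTHDF1-ADAR. The 1719 genes listed for YTHDF3-ADAR and not YTHDF1-ADAR, and the 1535 genes listed the other way round, had a median of 2 sites each. Of the shared genes, 3817 were also in the table of the third fusion, YTHDF2-ADAR. All 5323 were annotated as protein coding in the files, and 5163 had a score for both fusions. The score was missing for YTHDF3-ADAR in 16 genes and for YTHDF1-ADAR in 149. Those 160 genes had low expression, with a median of 13.1 CPM in YTHDF3-ADAR cells and 10.6 CPM in YTHDF1-ADAR cells, against 41.4 and 41.6 CPM over all shared genes. A score of 0 stood in 25 genes for YTHDF3-ADAR and in 75 for YTHDF1-ADAR, and ratios were taken over the 5068 genes with a score above 0 for both.

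YTHDF3-ADAR marked 45857 sites on the shared genes and YTHDF1-ADAR marked 36783, a ratio of 1.25. The summed depth of the total RNA libraries was 158248113 counts for YTHDF3-ADAR and 144794717 for YTHDF1-ADAR, a ratio of 1.09. The lines also differed in RNA of the deaminase gene ADARB1, with means of 1456.4 CPM in YTHDF3-ADAR cells and 247.4 CPM in YTHDF1-ADAR cells. The part of depth and of ADARB1 level in the site numbers and scores was not tested. The median gene had 6 sites with YTHDF3-ADAR and 4 with YTHDF1-ADAR, and the most sites on a gene were 117 and 110. YTHDF3-ADAR marked more sites on 3216 genes, the same number on 795 and fewer on 1312. Site number was at least 2-fold higher with YTHDF3-ADAR in 1860 genes, 34.9% of all shared genes, and at least 2-fold lower in 840, or 15.8%. With at least 10 sites for each fusion, 84 of 809 genes were at least 2-fold higher in sites and 29 lower, and with at least 20 for each, 9 of 200 were higher and 4 lower. Many of these ratios rest on few sites, since 316 genes had 1 site with each fusion and 1019 genes had fewer than 5 sites over both together. The score, which adds the sites up, was at least 2-fold higher with YTHDF3-ADAR in 1956 of 5068 genes (38.6%) and at least 2-fold lower in 998 (19.7%).

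**Figure D2:**
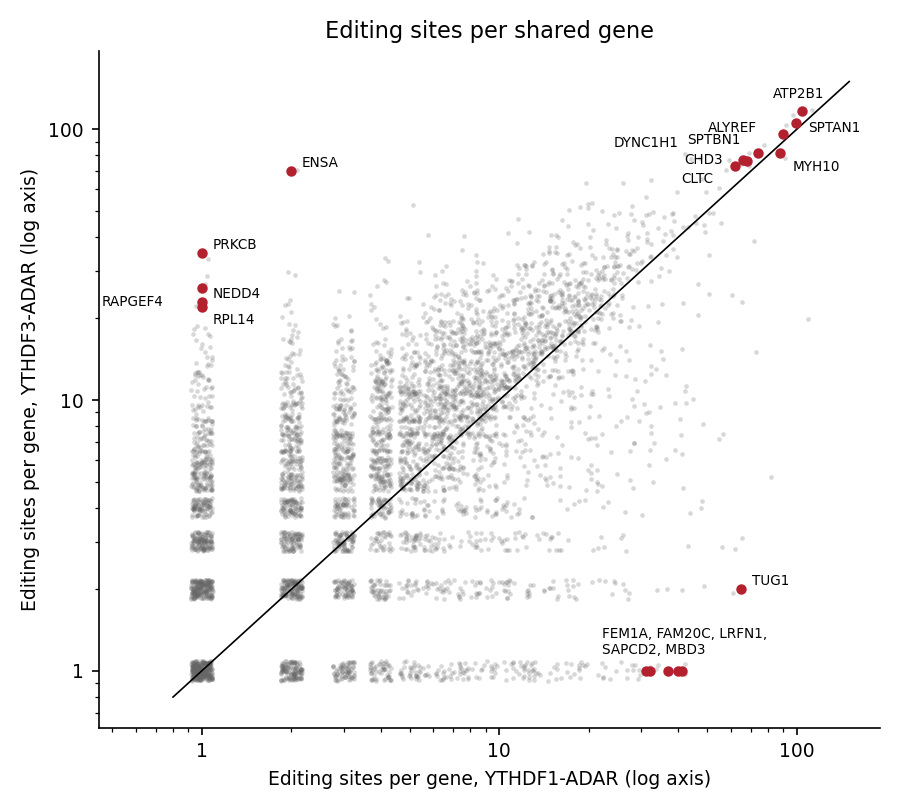
Editing sites per gene with YTHDF3-ADAR (vertical log axis) against YTHDF1-ADAR (horizontal log axis) for the 5323 shared genes, 1 grey point each with small random shifts so that equal counts can be seen; the line marks equal numbers. Red points are the genes named in the text for the most sites or for a high or low site ratio, from ENSA with 70 sites against 2 to TUG1 with 2 against 65.

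Editing per site was nearly the same for both fusions in the middle of the distribution. Over the 5163 genes with both scores, the median was 1.82% with YTHDF3-ADAR and 1.87% with YTHDF1-ADAR. Taken gene by gene, the median difference was 0.131 percentage points, with 2865 genes higher with YTHDF3-ADAR, 2296 lower and 2 equal. Editing per site was at least 2-fold higher with YTHDF3-ADAR in 622 genes (12.3% of those with a ratio) and at least 2-fold lower in 771 (15.2%). That balance turned when genes with few sites were left out: with at least 3 sites for each fusion, 303 were at least 2-fold higher (10.3%) and 288 lower (9.77%), and with at least 20 for each, 22 of 200 were higher and 3 lower. It turned in polysome RNA too, where 18.3% were at least 2-fold higher and 17.2% lower. Across genes, editing per site with the fusions had a Pearson r of 0.85 and a Spearman rho of 0.47 over 5163 genes; genes share libraries and are not independent replicates. Site numbers had an r of 0.62 over the 5323 genes.

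The balance moved with the number of sites. In genes with 2 to 4 sites over both fusions, the median difference per site was -0.0307 percentage points, and 49.1% of genes were higher with YTHDF3-ADAR. With 20 to 39 sites the median difference was 0.251 points and 61.2% of genes were higher. With 40 to 79 sites it was 0.542 points and 71.6%. In the 43 genes with 80 sites or more, the median was 3.06% with YTHDF3-ADAR and 2.54% with YTHDF1-ADAR, and 35 of the 43 were higher with YTHDF3-ADAR. A gene at least 2-fold lower per site was uncommon among well-marked genes: the share was 15.2% over all shared genes and 3.61% among genes with at least 10 sites for each fusion, where 9.59% were at least 2-fold higher.

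**Figure D3:**
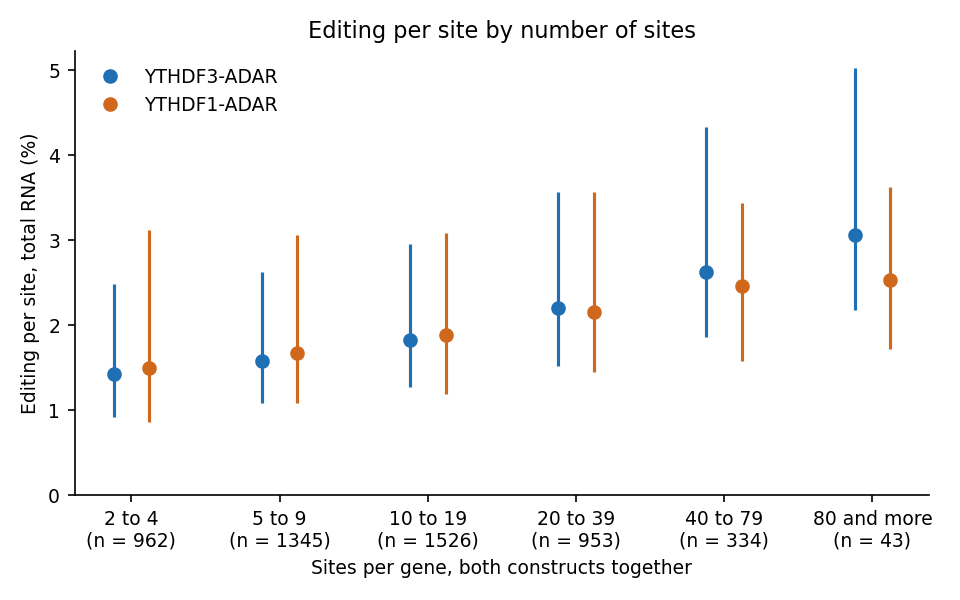
Editing per site in total RNA (percent) by the number of sites a gene had over both fusions together, with YTHDF3-ADAR in blue at the left and YTHDF1-ADAR in orange at the right; points are medians over genes, lines span the first to the third quartile, and n is the number of genes. The YTHDF3-ADAR median lies below that of YTHDF1-ADAR in the first bins and above it from 20 sites on, reaching 3.06% against 2.54% in the last.

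The same direction was seen on the polysome side, where the same sites were scored in other libraries. Both kinds of RNA share the site number of a gene, so the polysome values are not independent of those in total RNA. Of 5142 genes with all 4 values, 3685 (71.7%) differed in the same direction in polysome RNA as in total RNA, and the differences had an r of 0.81 and a rho of 0.58 across genes. With at least 10 sites for each fusion, the share was 82.4%. The median difference over the 5142 genes was 0.238 points in polysome RNA and 0.135 points in total RNA.

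The 8 genes with the most sites over both fusions together included genes of the cytoskeleton, of vesicle traffic and of mRNA export. Of the 8, 7 were edited more per site by YTHDF3-ADAR, near the 35 of 43 among all genes with 80 sites or more. ATP2B1, a plasma membrane calcium pump at chr12:89588049-89709300 (GRCh38, minus strand), led them, with 117 sites with YTHDF3-ADAR and 104 with YTHDF1-ADAR. The most sites of a shared gene with YTHDF1-ADAR were on FOXK1, a forkhead transcription factor outside the 8 and chosen after its values were seen, with 20 sites with YTHDF3-ADAR and 110 with YTHDF1-ADAR. Editing per site of ATP2B1 was 13.2% with YTHDF3-ADAR and 7.18% with YTHDF1-ADAR, and in polysome RNA 8.94% and 3.89%. ATP2B1 expression was uneven among replicates, at 88.3, 35.9 and 54.1 CPM in YTHDF3-ADAR cells, against 39.7, 79.7 and 73.5 CPM in YTHDF1-ADAR cells, so the groups overlapped. SPTAN1, the alpha chain of non-erythroid spectrin, had 105 sites at 3.27% with YTHDF3-ADAR and 99 sites at 2.30% with YTHDF1-ADAR. SPTBN1, its beta chain, had 82 sites at 7.04% and 74 sites at 4.57%. Both spectrin chains were thus higher per site with YTHDF3-ADAR, as were most genes with this many sites, and they differed in level. ALYREF, an mRNA export adaptor, had 96 sites at 7.03% with YTHDF3-ADAR and 90 sites at 5.94% with YTHDF1-ADAR. CLTC, the clathrin heavy chain, had 73 sites at 2.19% and 62 sites at 1.03%. CHD3, a chromatin remodeller of the NuRD complex, had 76 sites at 2.63% and 68 sites at 1.69%. MYH10, a non-muscle myosin heavy chain, was the single gene among the 8 with fewer sites in YTHDF3-ADAR cells, 82 at 1.40% against 88 at 1.16%. DYNC1H1, the dynein heavy chain, was the exception per site, with 77 sites at 1.12% with YTHDF3-ADAR and 66 sites at 1.55% with YTHDF1-ADAR. DYNC1H1 expression was 246.9, 616.6 and 631.4 CPM in YTHDF3-ADAR cells, against 238.2, 211.0 and 270.6 CPM in YTHDF1-ADAR cells; replicate 1 of the YTHDF3-ADAR line lay within the YTHDF1-ADAR range and the other replicates far above it.

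At the far ends of the site ratio, a gene well marked by one fusion was close to unmarked by the other. Of the 12 genes there, 4 were called different in expression by edgeR. Over all tested shared genes, 12.9% were called higher and 8.72% lower, and with 12 genes the count says nothing particular. ENSA, TUG1 and MBD3 were not called by edgeR (adjusted p = 0.863, 0.171 and 0.477). ENSA, an inhibitor of the phosphatase PP2A in mitosis, lies at chr1:150600851-150629612 (GRCh38, minus strand) in 7 exon blocks, the merged exons of the count table. ENSA had 70 sites at 3.92% with YTHDF3-ADAR and 2 sites at 0.982% with YTHDF1-ADAR. The YTHDF2-ADAR table lists 8 sites on it. ENSA expression was 241.2, 200.1 and 187.5 CPM in YTHDF3-ADAR cells, against 219.1, 206.3 and 190.7 CPM in YTHDF1-ADAR cells, with the groups interleaved. TUG1, known as a long noncoding RNA and listed as protein coding in the files, lies in 1 exon block at chr22:30969245-30979395 (GRCh38, plus strand). TUG1 had 2 sites at 0.613% with YTHDF3-ADAR and 65 sites at 3.15% with YTHDF1-ADAR. Its expression was 122.7, 83.5 and 115.0 CPM in YTHDF3-ADAR cells, against 109.9, 132.7 and 147.2 CPM in YTHDF1-ADAR cells, and the groups overlapped. MBD3, a NuRD subunit at chr19:1573596-1592865 (GRCh38, minus strand), had 1 site at 4.69% with YTHDF3-ADAR and 41 sites at 3.24% with YTHDF1-ADAR. MBD3 expression also overlapped, at 253.0, 191.9 and 174.1 CPM in YTHDF3-ADAR cells, against 247.7, 262.7 and 204.3 CPM in YTHDF1-ADAR cells.

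The other genes at these ends were mixed in expression. SAPCD2, a regulator of spindle orientation, had 1 site with YTHDF3-ADAR and 40 with YTHDF1-ADAR, and LRFN1, a synaptic adhesion protein, had 1 and 37; neither passed the expression test by edgeR (adjusted p = 0.168 and 0.476). FEM1A, a substrate receptor of a cullin ligase, in 1 exon block on chromosome 19, had 1 site with YTHDF3-ADAR and 31 with YTHDF1-ADAR. FEM1A expression fell to 111.9, 79.7 and 76.4 CPM in YTHDF3-ADAR cells, against 149.1, 152.0 and 131.9 CPM in YTHDF1-ADAR cells (log2 fold change -0.69 ± 0.20 SE, edgeR adjusted p = 0.0259). The FEM1A call was lost when any library but YTHDF3-ADAR replicate 1 was left out, with log2 fold changes of -0.75 to -0.59, and with the 6 total RNA libraries alone (-0.69). FAM20C, the kinase of secreted proteins, had 1 site with YTHDF3-ADAR and 32 with YTHDF1-ADAR. FAM20C expression fell further, to 10.5, 14.1 and 13.7 CPM in YTHDF3-ADAR cells, against 54.1, 58.6 and 50.3 CPM in YTHDF1-ADAR cells (log2 fold change -2.09 ± 0.12 SE, edgeR adjusted p = 1.76e-08). In the other direction, PRKCB, a protein kinase C isoform, had 35 sites at 26.8% with YTHDF3-ADAR and 1 site at 92.6% with YTHDF1-ADAR. PRKCB expression was 16.1, 29.3 and 31.9 CPM in YTHDF3-ADAR cells, against 6.01, 6.22 and 1.84 CPM in YTHDF1-ADAR cells, so the fusion with more sites was also the line with more of the RNA (log2 fold change 2.46 ± 0.56 SE, edgeR adjusted p = 0.00775). The PRKCB call was lost with the 6 total RNA libraries alone, at a log2 fold change of 2.5. NEDD4, a HECT ubiquitin ligase, had 26 sites and 1, and RAPGEF4, a cAMP-activated exchange factor, had 23 and 1; each lacks a score for at least 1 fusion in total RNA. RPL14, a protein of the large ribosomal subunit, had 22 sites at 5.30% with YTHDF3-ADAR and 1 site at 17.0% with YTHDF1-ADAR; ribosomal protein genes have processed copies in the genome between which reads can be split, so its values are uncertain. RPL14 expression was 565.8, 923.7 and 904.2 CPM in YTHDF3-ADAR cells, against 579.4, 487.6 and 557.5 CPM in YTHDF1-ADAR cells, and the groups overlapped. It was called higher (log2 fold change 0.56 ± 0.16 SE, edgeR adjusted p = 0.0241), but not without YTHDF3-ADAR replicate 2 or 3 or YTHDF1-ADAR replicate 2 or 3 (0.44 to 0.58), nor with the 6 libraries alone (0.56).

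Site ratio went with gene structure. In genes with 1 to 2 exon blocks, YTHDF3-ADAR marked 1292 sites and YTHDF1-ADAR marked 1923, and the median log2 ratio was 0.00. In genes with 6 to 10 blocks the median log2 ratio was 0.26, and in genes with over 20 blocks it was 0.68, with 16231 sites with YTHDF3-ADAR and 10934 with YTHDF1-ADAR. In that last class 520 of 1234 genes were at least 2-fold higher in sites and 137 at least 2-fold lower; in genes with 1 to 2 blocks 60 of 258 were at least 2-fold higher and 81 at least 2-fold lower. The 119 genes with a single exon block held 623 sites with YTHDF3-ADAR and 1143 with YTHDF1-ADAR. The order held in each of 5 equal classes of expression: in the class with the lowest CPM the median log2 ratio was 0.09 for genes with 1 to 5 blocks and 0.68 for genes with over 10, and in the class with the highest CPM it was 0.29 and 0.42. Editing per site moved less, with a median difference of -0.100 points in genes with 1 to 2 blocks and 0.151 points in genes with over 20. Across all shared genes, log2 site ratio and exon blocks had an r of 0.15, so block number orders the classes and says little of a single gene.

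**Figure D4:**
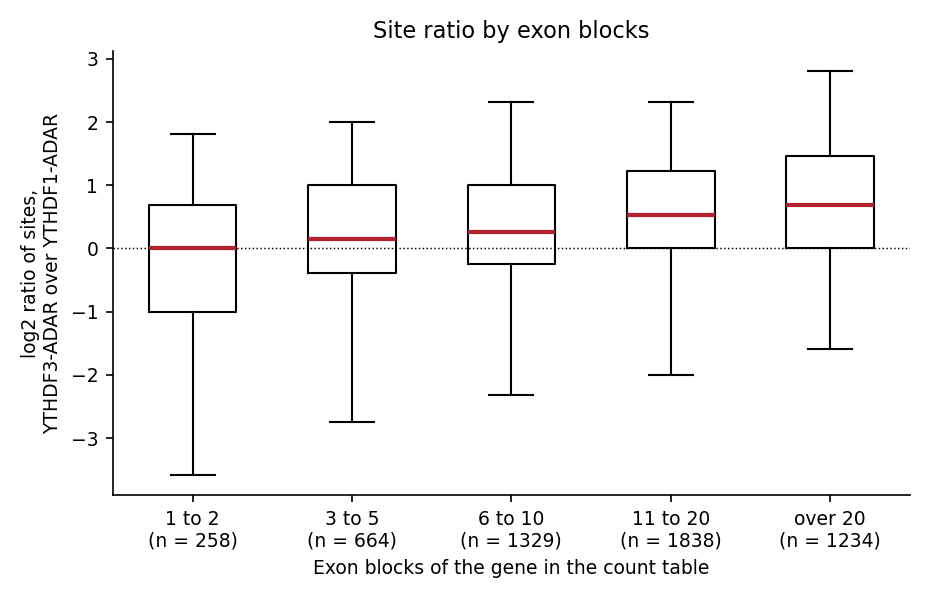
Log2 ratio of sites, YTHDF3-ADAR over YTHDF1-ADAR (vertical axis), by the number of exon blocks of the gene; boxes span the quartiles over genes, red lines are medians, whiskers leave out the outermost 5% of genes on each side, and n is the number of genes. The median moves up from 0.00 in genes with 1 to 2 blocks to 0.68 in genes with over 20.

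Genes at least 4-fold apart in sites differed in their surroundings as well. Among the 2915 genes with 10 sites or more over both fusions, 287 had at least 4-fold more sites with YTHDF3-ADAR and 237 at least 4-fold fewer. Those with more had a median of 17 exon blocks, and those with fewer a median of 9, while median exonic length was 6768 and 6952 bases. Median promoter GC, taken over a short window around the gene start in RefSeq (GRCh38.p14), was 64.7% in the genes with more sites and 70.0% in those with fewer; a promoter was found for 4392 of the 5323 genes. Of the genes with more sites, 1.39% lay on chromosome 19, against 8.44% of those with fewer and 4.70% of all 2915. In expression, 47 of 286 tested genes with more sites were called higher and 26 lower. Of the 237 with fewer sites, 10 were called higher and 35 lower. Over all tested shared genes, 12.9% were called higher and 8.72% lower. These calls depended on the fit, since the 6 total RNA libraries alone left 37 shared genes higher and 31 lower. By chromosome, the share of genes with more sites with YTHDF3-ADAR was lowest on chromosomes 19 (43.8%), 16 (45.6%) and 21 (47.7%), and highest on chromosomes 2 (73.5%) and 5 (71.3%).

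Genes edited at 20% or more per site numbered 109 with YTHDF3-ADAR and 97 with YTHDF1-ADAR, 141 with either and 65 with both. The list of 76 nerve and glial tissue genes was drawn up after these values were seen, so how many of its members are strongly edited follows from that choice: 46 were among the shared genes, and 32 of the 46 were edited at 20% or more with at least 1 fusion. Their median editing per site was 27.0% with YTHDF3-ADAR and 38.6% with YTHDF1-ADAR, and the median difference taken gene by gene was -0.773 points, with 18 genes higher with YTHDF3-ADAR and 24 lower. They had 679 sites with YTHDF3-ADAR and 428 with YTHDF1-ADAR. The summed level of all 76 genes was 1310.8, 1385.3 and 1418.8 CPM in YTHDF3-ADAR cells, against 1096.8, 1135.3 and 768.6 CPM in YTHDF1-ADAR cells. Of the 141 highly edited genes, 25 had a level in that replicate at or below 0.5 times the mean of replicates 1 and 2, against 50 of all 5323 shared genes. The part of that library, and of RNA from another source, in the high values was not tested.

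The highest scores of all belonged to KIF5A, a neuronal kinesin at chr12:57546026-57586633 (GRCh38, plus strand). KIF5A had a score of 23.2 over 50 sites with YTHDF3-ADAR and 15.6 over 29 sites with YTHDF1-ADAR, which is 46.5% and 53.9% per site. Its expression was 37.0, 49.8 and 50.2 CPM in YTHDF3-ADAR cells, against 36.8, 34.1 and 22.5 CPM in YTHDF1-ADAR cells. PPP3CA, a catalytic subunit of calcineurin, came next, with a score of 17.8 over 50 sites and 12.1 over 49 sites, or 35.5% and 24.8% per site. PDE1B, a phosphodiesterase activated by calmodulin, was edited at 82.0% and 82.4% per site. SNAP25 reached 98.0% over 10 sites with YTHDF3-ADAR and 99.6% over 2 sites with YTHDF1-ADAR. Values this close to 100% cannot tell an edited base from a fixed difference to the reference genome without the positions.

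Among genes with at least 5 sites for each fusion, the 10 largest differences per site in the direction of YTHDF1-ADAR included 8 genes of that same list, and the 10 largest in the direction of YTHDF3-ADAR included 2. Since the list was drawn up with these values in view, the counts are a description alone. DLG4, a scaffold of excitatory synapses, had 37.7% over 17 sites with YTHDF3-ADAR and 78.5% over 7 sites with YTHDF1-ADAR. DLG4 expression was 18.4, 31 and 33.3 CPM in YTHDF3-ADAR cells, against 14.8, 14.4 and 6.23 CPM in YTHDF1-ADAR cells. SYT7, a calcium sensor of exocytosis, had 35.5% and 67.6%, and GPM6A, a neuronal membrane glycoprotein, 31.7% and 57.0%. APLP1, ALDOC, GNAO1, NDRG4 and DNM1, all typical of neurons or astrocytes, had differences of -21.8 to -17.0 points. The other members of this group of 10 were PSD, an exchange factor for ARF6, with 68.0% and 84.2%, and STK16, a Golgi-bound kinase, with 28.0% and 43.6%. The score, which adds the sites up, did not follow throughout. It was higher with YTHDF3-ADAR for DLG4 (6.42 against 5.49), SYT7, GPM6A, GNAO1 and PSD. For APLP1, ALDOC (7.55 against 11.2), NDRG4, DNM1 and STK16 it was lower with YTHDF3-ADAR.

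Beside ADARB1, the largest differences in the direction of YTHDF3-ADAR were spread over functions. FBXL16, an F-box protein, had 41.0% over 8 sites with YTHDF3-ADAR and 9.29% over 13 sites with YTHDF1-ADAR. FBXL16 expression fell to 21.1, 30.4 and 30.7 CPM in YTHDF3-ADAR cells, against 53.7, 56.9 and 42.8 CPM in YTHDF1-ADAR cells, without overlap (log2 fold change -0.90 ± 0.16 SE, edgeR adjusted p = 0.00197). ENC1, an actin-binding kelch protein, was alike in both respects. It had 18.8% over 28 sites and 6.78% over 40 sites, and its expression fell to 17.4, 12.5 and 12 CPM in YTHDF3-ADAR cells, against 28.7, 27.0 and 23 CPM in YTHDF1-ADAR cells (edgeR adjusted p = 0.00318). With the 6 total RNA libraries alone the FBXL16 and ENC1 calls were lost, at a log2 fold change of -0.90 each. MEIS2, a homeodomain factor, had 28.0% over 33 sites and 11.1% over 36 sites. AGAP2, a GTPase-activating protein for ARF, had 33.8% over 44 sites and 18.2% over 16 sites. OFD1, a centriole protein, had 56.5% and 37.5%, RSF1, a chromatin remodelling factor, 48.3% and 33.7%, and GPC3, a cell-surface proteoglycan, 31.3% and 16.6%. The membrane glycoprotein GPM6B had 45.6% and 29.3%, and the secreted neuronal protein OLFM1 65.4% and 50.6%. Of these 20 genes at the ends, 19 differed in the same direction in polysome RNA, against 77.9% of genes with at least 5 sites for each fusion. Both values rest on the same sites and the genes were picked for wide gaps, so the count is a description alone.

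**Figure D5:**
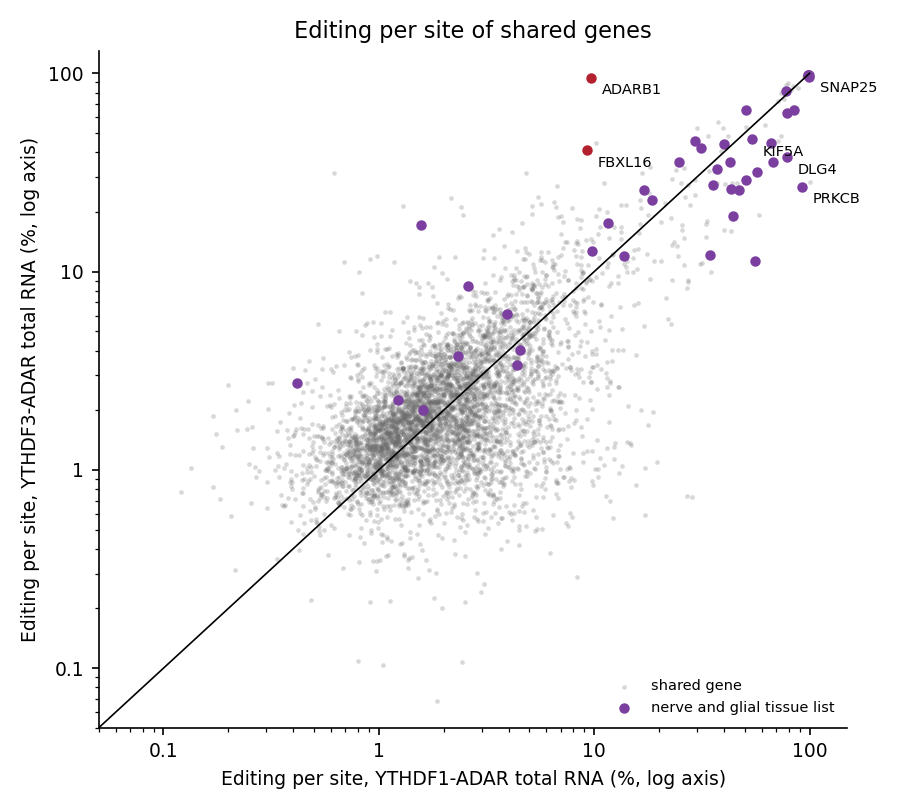
Editing per site in total RNA with YTHDF3-ADAR (vertical, percent, log axis) against YTHDF1-ADAR (horizontal, percent, log axis) for shared genes with a score above 0 for both; the line marks equal values and purple points are the nerve and glial tissue list. ADARB1 at 95.2% against 9.69% and FBXL16 at 41.0% against 9.29% lie far above the line, and PRKCB at 26.8% against 92.6% lies below it.

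Lists of genes by function, chosen with earlier results of these data known, are described beside the shared genes as a whole, of which 34.9% and 15.8% were at least 2-fold higher and lower in sites, and 12.3% and 15.2% at least 2-fold higher and lower per site. Over all shared genes, 60.4% had more sites with YTHDF3-ADAR and 24.6% fewer, and 55.5% of those scored were higher per site and 44.5% lower; counts near these shares say nothing particular of a list. Ubiquitin ligases leaned furthest to YTHDF3-ADAR in sites: 26 of 30 cullins and E3 ligases had more sites with it and 3 had fewer, with 540 sites with YTHDF3-ADAR and 240 with YTHDF1-ADAR. Their median log2 site ratio was 1.58, against 0.42 over all shared genes, and 19 of 30 were at least 2-fold higher in sites. Per site they were even, with 14 higher and 14 lower. HERC1, a giant HECT-domain ligase, had 53 sites at 4.13% with YTHDF3-ADAR and 5 sites at 2.86% with YTHDF1-ADAR. UBR3, a ligase with a UBR box, had 45 sites at 4.08% with YTHDF3-ADAR and 11 sites at 1.90% with YTHDF1-ADAR. TRIP12, a HECT-domain ligase, had 52 sites at 1.42% and 21 sites at 1.10%. The list had a median of 28 exon blocks, a class in which YTHDF3-ADAR marked more sites in general. The deubiquitinases, which undo such marks, had 335 sites with YTHDF3-ADAR and 180 with YTHDF1-ADAR, and 20 of 26 had more with YTHDF3-ADAR. USP47, the largest of them by sites, had 33 and 13.

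The C2H2 zinc finger genes, a large family of DNA-binding proteins with many repressors, leaned the other way. Of 87 shared members, 27 had more sites with YTHDF3-ADAR, 13 the same number and 47 fewer, with 437 sites with YTHDF3-ADAR and 655 with YTHDF1-ADAR. Their median log2 site ratio was -0.47, and 36 of 87 were at least 2-fold lower. The table of YTHDF1-ADAR also held more members of the family, 185 of 423, than that of YTHDF3-ADAR, with 102. ZNF629 had 3 sites with YTHDF3-ADAR and 56 with YTHDF1-ADAR, at 0.804% and 2.64%. ZNF629 expression was 103.4, 103.6 and 99.3 CPM in YTHDF3-ADAR cells, against 126.7, 115.9 and 112.2 CPM in YTHDF1-ADAR cells. ZNF276 had 8 sites and 42, while ZNF609 had 20 with each and ZNF106 had 22 and 12, so the family was not uniform. These genes had a median of 7 exon blocks.

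Histone lysine methyltransferases were even in sites and lower per site with YTHDF3-ADAR, with 11 genes having more and 11 fewer sites, and 5 of 22 higher and 17 lower per site. The median difference was -0.681 points, against 0.131 over all shared genes. KMT2D, the H3K4 methyltransferase, had 22 sites at 1.02% with YTHDF3-ADAR and 61 sites at 2.68% with YTHDF1-ADAR. NSD1, which methylates H3K36, had 15 sites at 1.28% and 23 sites at 2.20%, and ASH1L, another H3K36 enzyme, 36 sites at 1.68% and 17 sites at 2.43%. EHMT2, which methylates H3K9, was an exception with 2.98% over 33 sites and 2.00% over 27. The HIPK, DYRK and CLK kinases, nuclear kinases of which the CLK members phosphorylate SR splicing factors, were lower per site with YTHDF3-ADAR in 10 of 11, with a median difference of -1.25 points, though 8 of 11 had more sites. HIPK1 had 1.52% with YTHDF3-ADAR and 2.77% with YTHDF1-ADAR, DYRK1A 1.16% and 2.35%, and CLK4 3.24% and 3.50%. CLK1 was the single one higher, with 3.01% and 2.24%. A list of nuclear receptor coregulators, other coactivators and Mediator subunits had 6 of 19 higher and 13 lower, with a median difference of -0.668 points; among the largest by sites were the corepressor NCOR1 with 1.42% and 1.36%, the coactivators NCOA6 with 2.66% and 3.42%, NCOA1 with 3.93% and 4.72%, and the Mediator subunit MED13 with 2.97% and 3.92%. Chromatin remodellers were split, 10 and 10 per site, with 394 sites with YTHDF3-ADAR and 313 with YTHDF1-ADAR; SMARCA2, a SWI/SNF ATPase, had 66 sites at 7.12% and 30 sites at 5.10%.

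Genes of the m6A pathway itself had more sites with YTHDF3-ADAR and lower editing per site. Of 15 shared writers, erasers and readers, 12 had more sites and 2 fewer, and 4 were higher and 11 lower per site. RBM15B, which recruits the methyltransferase to its targets and has 1 exon block, was the largest by sites and went against the list in site number but not per site, with 8 sites at 0.998% with YTHDF3-ADAR and 49 sites at 2.44% with YTHDF1-ADAR. The next by sites were 3 of the 4 members higher per site. FXR2, an RNA-binding relative of FMRP, had 33 sites at 1.90% and 22 sites at 1.17%. VIRMA, the scaffold of the writer complex, had 22 sites at 1.87% and 8 sites at 1.03%, and YTHDC1, the nuclear reader, 21 sites at 1.48% and 8 sites at 1.18%. RBM15B expression did not separate the lines, at 145.4, 130.4 and 120.7 CPM in YTHDF3-ADAR cells, against 137.6, 145.3 and 127.2 CPM in YTHDF1-ADAR cells.

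Translation initiation factors were marked more by YTHDF3-ADAR in both respects: 17 of 20 had more sites, 16 of 20 were higher per site, and their sites numbered 225 with YTHDF3-ADAR and 120 with YTHDF1-ADAR. EIF4G3, a scaffold of the cap-binding complex, had 33 sites at 1.64% and 19 sites at 1.18%. EIF5B, which joins the ribosomal subunits, had 22 sites at 1.64% and 18 sites at 0.984%, with expression of 119.8, 22.8 and 35.9 CPM in YTHDF3-ADAR cells, against 53.2, 124.0 and 128.5 CPM in YTHDF1-ADAR cells, split by replicate as for TPR. The DNAJ and HSP chaperones had 407 sites with YTHDF3-ADAR and 232 with YTHDF1-ADAR, with 23 of 28 having more and 20 of 27 higher per site; DNAJA2 had 2.90% and 1.70%. RAB GTPases, switches of vesicle traffic, were higher per site in 21 of 31, with a median difference of 0.556 points. RAB2A, which works between the endoplasmic reticulum and the Golgi, had 28 sites at 8.96% with YTHDF3-ADAR and 27 sites at 4.17% with YTHDF1-ADAR. RAB2A expression fell to 31, 30.8 and 30.1 CPM in YTHDF3-ADAR cells, against 52.8, 44.4 and 45.3 CPM in YTHDF1-ADAR cells (edgeR adjusted p = 0.000494). It lies on chromosome 8, where 90 of 174 tested shared genes were called lower and 4 higher. Nuclear subunits of the respiratory chain were higher per site in 21 of 29, with NDUFS1 at 1.76% and 1.59% and ATP5F1B at 2.32% and 1.42%. Mitochondrial ribosomal proteins had 117 sites and 65, of which MRPL42 alone held 52 and 21, and 8 of 15 were higher per site. Of 86 cytosolic ribosomal protein genes, 33 were in at least 1 of these tables and 18 were shared, with 71 sites and 48; RPL28 had 2 and 12 and RPL27A 2 and 10. Aminoacyl-tRNA synthetases had 7 higher and 12 lower per site, and LARS2, the mitochondrial leucyl enzyme, had 3 sites with YTHDF3-ADAR and 41 with YTHDF1-ADAR.

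Among RNA-processing lists, SR proteins and hnRNPs had more sites with YTHDF3-ADAR in 19 of 26 and fewer in 4. The member with the most sites went the other way: SON, a scaffold of nuclear speckles, had 41 sites at 1.16% with YTHDF3-ADAR and 76 sites at 3.04% with YTHDF1-ADAR. HNRNPC, which binds uridine tracts, had 22 sites at 11.8% and 43 sites at 8.68%, and it had 49 sites in the YTHDF2-ADAR table. RNA decay and deadenylation genes, the machinery to which YTHDF proteins are known to recruit mRNA, had more sites in 16 of 24, close to the share over all shared genes, and lower editing per site in 15 of 24. UPF2, of nonsense-mediated decay, had 21 sites at 3.34% and 8 sites at 1.41%. Genes of the microRNA pathway were even, with 4 of 11 having more and 4 fewer sites; DROSHA had 30 and 27. Importins and exportins had 9 of 18 higher per site, and nuclear pore proteins 8 of 14, RANBP2 having 35 sites at 2.33% and 15 sites at 1.23%. Known recoding targets of the natural ADAR enzymes had 218 sites with YTHDF3-ADAR and 217 with YTHDF1-ADAR over 11 genes, and 4 of 11 were higher per site; CYFIP2 had 43 sites at 4.85% and 39 sites at 4.67%. Genes of double-stranded RNA sensing and the interferon response were higher per site with YTHDF3-ADAR in 5 of 5, among them EIF2AK2, the kinase PKR, with 2.76% and 1.75%, and IRF3, a transcription factor, with 2.06% and 1.55%. In expression, 1 of the 5 was called higher and 0 lower, against 12.9% and 8.72% of all tested shared genes. With 5 members, these counts say nothing particular of the list.

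Most growth and cell cycle lists had few shared members. Of 8 shared G1 regulators, 3 of 7 were higher per site. FBXW7, the substrate receptor that targets cyclin E, had 37 sites at 7.76% with YTHDF3-ADAR and 27 sites at 3.09% with YTHDF1-ADAR, and E2F3, a transcription factor of S-phase entry, had 1 site and 16. FBXW7 expression fell to 27.6, 21 and 23.8 CPM in YTHDF3-ADAR cells, against 29.6, 33.1 and 30.7 CPM in YTHDF1-ADAR cells (log2 fold change -0.37, edgeR adjusted p = 0.0247). The FBXW7 call was lost without YTHDF3-ADAR replicate 2 or 3 or YTHDF1-ADAR replicate 2 or 3, with log2 fold changes of -0.38 to -0.28, and with the 6 total RNA libraries alone (-0.37). Mitotic kinases had 4 of 9 higher per site, and NEK6 had 3 sites at 1.28% and 15 sites at 5.67%. PLK2, a polo-like kinase, had 22 sites at 22.1% with YTHDF3-ADAR and 4 sites without a score with YTHDF1-ADAR. Replication licensing genes had more sites in 7 of 9 and fewer in 1, with a median log2 site ratio of 1.00, and 7 of 9 were higher per site, on 47 sites and 30. Members of the Wnt, Notch, TGF-beta and Hippo pathways had 13 of 27 higher per site; BMPR2, a receptor of bone morphogenetic proteins, had 12 sites with each fusion at 13.5% with YTHDF3-ADAR and 3.82% with YTHDF1-ADAR, and APC, the scaffold that marks beta-catenin for destruction, had 38 sites at 5.69% and 16 sites at 3.73%. Solute carriers had 53 of 94 with more sites and 51 of 93 higher per site; SLC1A3, a glutamate transporter, had 8.47% and 2.58%. TUG1 was the single shared member of a list of 21 well-known long noncoding RNAs. Since all 5323 shared genes are annotated as protein coding, that count says nothing of the editing of such RNAs.

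Expression itself differed between the lines, and how many genes it touched depended on the fit. By edgeR, 680 of 5287 tested shared genes (12.9%) were called higher in YTHDF3-ADAR cells and 461 (8.72%) lower, against 3109 (11.6%) and 1747 (6.52%) of all 26804 tested genes. The shared genes therefore lay near the background. Without YTHDF3-ADAR replicate 1 the calls were 1138 and 1132; without replicate 2 they were 221 and 154, and without replicate 3 they were 224 and 152. Without YTHDF1-ADAR replicate 1, 2 or 3 they were 452 and 292, 402 and 286, and 274 and 212. With the 6 total RNA libraries of these lines alone, 37 shared genes were called higher and 31 lower. The excess of higher calls also depended on the fit, with 712 and 672 by DESeq2, 594 and 527 with its size factors in edgeR, and 390 and 386 with no low-count filter. Editing per site went against expression: among the 680 genes called higher, 283 were higher per site with YTHDF3-ADAR and 360 lower (median difference -0.157 points), and among the 461 called lower, 264 were higher and 188 lower (0.274 points). Among genes not called, the median difference was 0.164 points and 56.9% were higher. The log2 ratio of editing per site and the log2 fold change of expression had an r of -0.10 across 5036 genes, and the log2 site ratio had an r of 0.08 across 5287.

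Expression calls were uneven along the genome. On chromosome 8, 4 of 174 tested shared genes were called higher in YTHDF3-ADAR cells and 90 lower, with a median log2 fold change of -0.46. On chromosome 22, 60 of 139 were called higher and 0 lower by edgeR, with a median of 0.31; at an unadjusted p under 0.05, 76 were higher and 1 lower, and DESeq2 called 62 and 0. With the 6 total RNA libraries alone, 0 and 20 of the chromosome 8 genes passed by edgeR (6 and 97 at an unadjusted p under 0.05), and 2 and 0 of the chromosome 22 genes (72 and 1). Chromosomes 1 and 17 had 105 of 557 and 97 of 371 tested shared genes called higher, against 13 and 18 called lower. Chromosomes 3 and 9 had 64 of 307 and 39 of 203 called higher, against 19 and 12 called lower. Over all tested shared genes, 12.9% were called higher and 8.72% lower. Chromosome 8 also had the largest share of genes at least 2-fold higher per site with YTHDF3-ADAR, 20.4%, against 12.3% over all shared genes. The share of chromosome 8 genes with more sites with YTHDF3-ADAR was 54.6%.

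Editing per site fell with expression for both fusions alike. In the lowest of the 5 classes of expression the median was 2.7% with YTHDF3-ADAR and 2.57% with YTHDF1-ADAR, and in the highest it was 1.35% and 1.47%. The median difference was 0.151 points in the lowest class and 0.0698 points in the highest. Sites went the other way, with 6724 and 4309 in the lowest class and 11135 and 10422 in the highest, so the excess of YTHDF3-ADAR sites was larger in weakly expressed genes.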

How the data were processed

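The deposited count table holds, per the file headers and the submitters' processing notes, whole-number read counts for each gene and library from featureCounts 2.0.1 on STAR 2.7.7 alignments to GRCh38, with no normalization. The count table has 60675 gene rows beside a row that names no human gene, which stayed out of library sizes and tests and held at most 1.48e-05% of a library's counts. The authors' editing tables hold an editing score and a number of sites per gene, pooled over the replicates of a construct. How sites were called, scored and assigned to genes, and the strand setting of the counting, are not stated in the labels or file headers. Genes that overlap on opposite strands therefore cannot be told apart. Libraries were prepared from 150 ng RNA with a stranded kit, per the labels' protocols.

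The tables were joined on gene symbol. Percent editing per site is the deposited score divided by the deposited site number. Counts of all 18 libraries were fitted in R 4.3.3 with edgeR 4.0.16, with TMM factors, filterByExpr at its minimum count of 10 and the 6 group means. The quasi-likelihood contrast of total RNA used Benjamini-Hochberg adjustment over 26804 genes and a threshold of 0.05. Each SE was derived from the fold change and its F value. The fit was tested on simulated data. The SEs and p-values measure the spread between libraries, and the read counts carry no molecular identifiers. DESeq2 1.42.0, other scalings, the low-count filter, the 6 libraries alone, the replicate block and leaving out libraries were alternatives, as were minimum site numbers for the editing values. Exon blocks and coordinates come from the count table. The number of unmapped columns of per-sample values was 0.

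The shared genes, the 28 gene lists and all rules were chosen with earlier results of these data known. Named genes were the 10 largest differences per site in each direction with at least 5 sites for each construct, the 8 with the most sites, the 6 highest and 6 lowest site ratios with at least 10 sites together, the 6 highest scores per construct, up to 4 members of each list by sites, and the YTHDF and ADAR genes. The nerve and glial tissue list and the genes named under it were chosen after their values were seen, as were TPR and the brain markers SNAP25 and CAMK2A. Some genes these rules name are not reported here.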

Additional observations from a re-analysis of the deposited data

Results flagged for a closer look

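The count table holds a row that names no human gene. It had 8, 5 and 3 counts in the YTHDF3-ADAR total RNA libraries, against 1, 0 and 0 in those of YTHDF1-ADAR. The highest count, 8, lies above the limit of 3 that a count of 0 allows; the labels do not say what the row stands for.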

How the results depend on the processing

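The median differences and ratios of editing kept their direction under each alternative run, but the balance of genes at least 2-fold apart per site, 12.3% higher and 15.2% lower, turned with a minimum number of sites and with polysome scores. With at least 3 sites for each fusion, the median difference per site was 0.261 points, 62.3% of genes were higher with YTHDF3-ADAR, the median log2 score ratio was 0.67 and 10.3% were at least 2-fold higher and 9.77% lower per site. With at least 5 sites, the difference was 0.346 points, 65.1% were higher, the median log2 site ratio was 0.363 and 10.2% were at least 2-fold higher and 7.21% lower. With at least 10 sites, these were 0.535 points, 72.6%, 0.284, and 9.59% and 3.61%, and the median log2 score ratio was 0.674. With polysome scores the difference was 0.229 points, 59.0% were higher, the median log2 score ratio was 0.815, and 18.3% were at least 2-fold higher and 17.2% lower. Without genes called in expression, 0.166 points and 57.0% remained. Scores of 0 and genes that failed the count filter were left out in turn. Chosen after seeing the data, the nerve list and genes at 20% or more were left out too. So were genes low in YTHDF1-ADAR replicate 3 and genes under 1 CPM. None of these moved an editing summary beyond its spread over genes, which is no measure of error between replicates. A join on gene IDs was not run, since the editing tables give symbols alone.

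Expression calls moved far more, and the cause was not tested. Over all genes and then over shared genes, no normalization factors gave 6780 higher and 534 lower, and 1722 and 88, as it shifted the median shared gene to 0.21. No low-count filter gave 1952 and 1467, and 390 and 386. DESeq2 gave 3341 and 2470, and 712 and 672, and RLE factors 2807 and 1985, and 594 and 527. The 6 libraries of these lines alone gave 210 and 137, and 37 and 31. The replicate block gave 9 and 7 over all genes, and 0 and 3 shared genes by edgeR, with 719 and 523 at an unadjusted p under 0.05. Replicate numbers do not pair the libraries: same-numbered deviations had an r of -0.156, -0.159 and 0.05. Leaving out 1 library gave 1042 to 5446 genes higher and 602 to 4592 lower, and 221 to 1138 and 152 to 1132 shared genes.

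The alternatives of expression were run for 49 of the named genes, not for most list members. None of the 49 that passed the test changed direction. Among those that did not pass, no normalization factors turned the log2 fold change to 0.0087 for OFD1, 0.17 for OLFM1, 0.099 for ATP2B1, 0.22 for CHD3, 0.038 for MBD3, 0.12 for LRFN1 and 0.049 for YTHDF2. For SPTBN1 and ENSA, RLE factors gave -0.0019 and -0.0072, no filter -0.0095 and -0.016, and DESeq2 -0.0018 and -0.0071. When libraries were left out in turn, the range was -0.21 to 0.011 for OLFM1, -0.61 to 0.049 for RSF1, -0.54 to 0.15 for ATP2B1, -0.0099 to 0.075 for SPTBN1, -0.081 to 0.069 for CHD3 and -0.12 to 0.10 for ENSA. Over the 49 genes and these alternatives, 65 values lost and 22 gained the threshold, and 478 kept direction and side.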

Other observations

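Some shared genes were listed as edited while the count table gave them almost no reads. Of the 5323, 22 had a mean under 0.1 CPM in both lines. REC114, a meiotic recombination gene, had 19 sites at 12.9% with YTHDF3-ADAR and 18 sites at 8.03% with YTHDF1-ADAR. Its level was 0.0182, 0 and 0.0955 CPM in YTHDF3-ADAR cells, against 0.0301, 0.022 and 0.146 CPM in YTHDF1-ADAR cells. ABCC3, an efflux pump, had 12 sites and 7 at 1.96% and 1.95%, NUTM1 had 10 and 9 at 5.93% and 3.89%, and GAS2L2 had 8 and 5 at 7.45% and 7.06%. NR1I2, a xenobiotic receptor, had 2 sites and 3, with no read counted in any YTHDF3-ADAR total RNA library. These genes were chosen after their values were seen.

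Missing scores fell unevenly. YTHDF1-ADAR lacked a score in total RNA for 149 shared genes and YTHDF3-ADAR for 16, while in polysome RNA YTHDF1-ADAR lacked 14 and YTHDF3-ADAR 9. Some of the genes without a YTHDF1-ADAR score were among the most strongly edited by YTHDF3-ADAR: DLGAP3, a synaptic scaffold, stood at 77.2% over 11 sites, GAP43, a growth cone protein, at 61.9% over 12 sites, and SYT1, a synaptic calcium sensor, at 45.2% over 23 sites. Their levels in YTHDF1-ADAR replicate 3 were 3.03, 1.31 and 4.37 CPM, against 12.7 and 14.2, 3.67 and 3.14, and 7.51 and 9.85 CPM in replicates 1 and 2.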
